A study of Caenorhabditis elegans with 82 samples.

Results

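The cytochrome P450 (cyp) family of *Caenorhabditis elegans* was taken as all protein-coding genes whose symbol is cyp followed by a number and a subfamily letter. This rule used names and no measured value, and it found 74 members among the 46748 genes of the count table, in 25 subfamilies. Whole bodies of the wild-type strain N2 were measured on 4 bacterial diets. OP50 is the *E. coli* strain used as standard laboratory food and served as control. MYb71 and MYb65 are *Ochrobactrum* isolates of the natural microbiota of the worm, and Mix combined both isolates. The labels write MYb65 where the text of the study writes MYb237, and the labels' name is used here. Worms were bleach-synchronized hermaphrodites kept at 20 °C on plates with a lawn of the given bacteria, after adjustment to those bacteria over earlier generations. They were harvested at 6 h (L2), 24 h (L3), 48 h (L4) and 72 h (Ad1), and as 3-day old (Ad3) and 7-day old adults (Ad7). Larvae were washed from the plates while adults were picked one by one, so this handling and the larval or adult state cannot be told apart. Each replicate pooled many worms from an independent run of the exposure.

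P450 enzymes are heme proteins that insert an oxygen atom into small lipophilic molecules. Most receive their electrons from NADPH through a reductase, which is EMB-8 in *C. elegans*, or through cytochrome b5. Some members make signaling lipids or structural lipids from fatty acids and sterols. Others oxidize foreign compounds before conjugation by UDP-glucuronosyltransferases (*ugt* genes) and glutathione S-transferases (*gst* genes). Many nematode members lie in tandem arrays on the chromosomes and are expressed in the intestine, the organ that meets the bacteria. *daf-9*, which makes the steroid hormone dafachronic acid, is also a P450 gene but carries another name and was counted among the pathway genes below.

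The main set held 71 libraries, with 3 for each diet and stage and 2 for MYb65 at L2, and between 10513060 and 74552875 counted reads each (median 21700247). Of 82 libraries, 77 had their highest correlation with libraries of their own labelled stage. The OP50 libraries numbered 3 at L2 and at L3 correlated more with Ad3 (r = 0.985, against 0.716 for L2) and with Ad7 (r = 0.979, against 0.629 for L3). Neither was in the main set. Within it, the libraries MYb65 Ad3 number 1 and OP50 Ad1 number 2 were closest to the neighboring adult stage. A pair of MYb65 libraries carries one stage in the title and a later one in the time point field, and both were placed by the time point. Values are CPM, the counts of a gene relative to the size of its library after scaling by edgeR's trimmed mean of M values (TMM), and levels of different genes are compared per kilobase of exon. A member was called where its Benjamini-Hochberg adjusted p in edgeR's quasi-likelihood test, adjusted over all genes tested, was under 0.05. In whole worms, fewer cells of a type and less RNA per cell cannot be told apart. Worms were harvested at set times, and the part of developmental pace in the changes of stage-dependent members was not tested.

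Of the 74 members, 41 lie on chromosome V, 12 on II, 7 each on IV and X, 6 on III and 1 on I (Ensembl annotation of the WBcel235 assembly). In all, 45 members sit in 11 arrays, in which neighbors had at most 3 other protein-coding genes between them. The longest arrays hold *cyp-35A5*, *cyp-35B1* to *cyp-35B3* and *cyp-34A5* to *cyp-34A10* on V (3936326 to 3972991, 36.7 kb) and *cyp-13A1* to *cyp-13A8* on II (9779181 to 9807569, 28.4 kb). Array members resemble each other in sequence, and the treatment of reads with several mapping places is not stated in what was used here, so values of close paralogs are uncertain to that extent. *cyp-36A1*, *cyp-44A1*, *cyp-37A1*, *cyp-33E3*, *cyp-31A5*, *cyp-33C11*, *cyp-37B1* and *cyp-43A1* share exon bases with a neighboring gene, which an unstranded library cannot resolve. 70 members passed the filter on low counts. *cyp-25A6*, *cyp-35B3*, *cyp-35A1* and *cyp-33B1* did not, with 64, 14, 97 and 219 counts over all 71 libraries.

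On OP50 the most abundant members per kilobase were *cyp-31A2*, *cyp-31A5* and *cyp-31A3*, with means over the 6 stages of 47.1, 32.5 and 31.1 CPM per kb. *cyp-31A2* and *cyp-31A3* are known to act redundantly in making lipids of the eggshell. They were followed by *cyp-25A2* (23.3), *cyp-37A1* (21.1), *cyp-44A1* (18.9), a P450 of the mitochondrial type, *cyp-14A5* (18.4) and *cyp-29A2* (18.1 CPM per kb). The least abundant member that was tested, *cyp-35B2*, had 0.151 CPM per kb. The summed level of the 3 *cyp-31A* genes on OP50 started from 3.54 ± 0.811 CPM at L2 and 6.64 ± 1.17 CPM at L3 (mean ± SD, n = 3). It was 147 ± 67.6 CPM in L4 larvae, 247 ± 93.8 CPM at Ad1 and 322.5 ± 35 CPM at Ad3. At Ad3 this was 39.1% of the CPM of the whole family, and at L2 0.49%. Summed levels of 4 oocyte and eggshell markers moved with it, from 10.1 to 12.5 CPM at L2 to 6201 to 7443 CPM at Ad3 over the OP50 libraries, and their part in this rise was not tested. The other 71 members together ranged between 399.9 ± 59.9 CPM at L4 and 718 ± 116 CPM at L2 on OP50.

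Between consecutive stages on OP50, 44 of the 70 tested members (62.9%) were called at least once, beside 83.4% of all genes tested, so the share of the family was below the background. Over the 6 stages 22 members varied over 10-fold between their lowest and highest stage mean, and the share of all genes that did so is not given here. From L2 to L3, 7 members rose and 12 fell, beside 13.8% and 13.5% of all genes tested. From L3 to L4, 10 rose and 19 fell (34.3% and 26.3% of all genes), from L4 to Ad1 10 rose and 4 fell (20.5% and 23.3%), and from Ad1 to Ad3 5 rose and 1 fell (1.48% and 7.47%). From Ad3 to Ad7 edgeR called 0 members, with 13 at an unadjusted p under 0.05, and 0.321% of all genes. DESeq2 called 3 members, beside 115 of all 18364 genes. The count of 44 was 26 when all libraries numbered 1 were left out.

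The members with the smallest p-values at each step and in each direction are given with their levels. *cyp-31A2* rose from 2.45, 1.96 and 2.08 CPM in the OP50 libraries at L3 to 77.9, 33.6 and 74.8 CPM at L4 (log2 change 4.83 ± 0.31 SE, adjusted p = 8.7e-19). *cyp-31A3* and *cyp-31A5* rose by 3.94 ± 0.32 and 4.55 ± 0.37 on the log2 scale at the same step, with no overlap between the L3 and L4 libraries. *cyp-34A1* went the other way, from 8.87, 3.13 and 2.31 CPM at L3 to 0.048, 0.337 and 0.137 CPM at L4 (log2 change -4.79 ± 0.75). *cyp-25A4* and *cyp-29A2* fell at that step by 1.07 ± 0.18 and 1.29 ± 0.28 on the log2 scale. From L2 to L3 *cyp-13B1* fell by 3.03 ± 0.59 on the log2 scale, with 67.9, 43.6 and 28.1 CPM at L2 and 3.87, 5.72 and 7.56 CPM at L3. *cyp-13A10* and *cyp-34A5* fell at the same step by 2.21 ± 0.41 and 2.18 ± 0.44 on the log2 scale. *cyp-37A1* rose there from 30.7, 22.8 and 20.6 CPM to 48.2, 95.6 and 95.7 CPM, and returned to 16.4, 25.3 and 25.6 CPM at L4. *cyp-29A3*, which encodes an enzyme of eicosanoid synthesis, rose from L2 to L3 by 1.52 ± 0.38 and fell from L3 to L4 by 0.92 ± 0.38 on the log2 scale.

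Entry into adulthood added another set. From L4 to Ad1 the smallest p-values among rising members belonged to *cyp-13A7* (log2 change 3.84 ± 1.00), *cyp-13B2* (2.02 ± 0.54) and *cyp-13A1* (3.12 ± 0.91), and among falling members to *cyp-33E3*, *cyp-33C2* and *cyp-33C5* (-1.25 ± 0.38, -1.38 ± 0.48 and -1.15 ± 0.40). *cyp-13A7* is known as a gene induced by rifampicin through the nuclear receptor NHR-8. From Ad1 to Ad3, *cyp-33C2*, *cyp-14A3* and *cyp-35B1* rose by 1.97 ± 0.48, 2.40 ± 0.63 and 1.99 ± 0.53 on the log2 scale, and *cyp-25A3* fell by 1.55 ± 0.27. *cyp-35B1*, known as a target of the FOXO factor DAF-16, continued from 8.13, 12.1 and 10.7 CPM at Ad3 to 18.6, 59.2 and 27.1 CPM at Ad7 on OP50, where the libraries did not overlap but the step was not called.

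**Figure D1:**
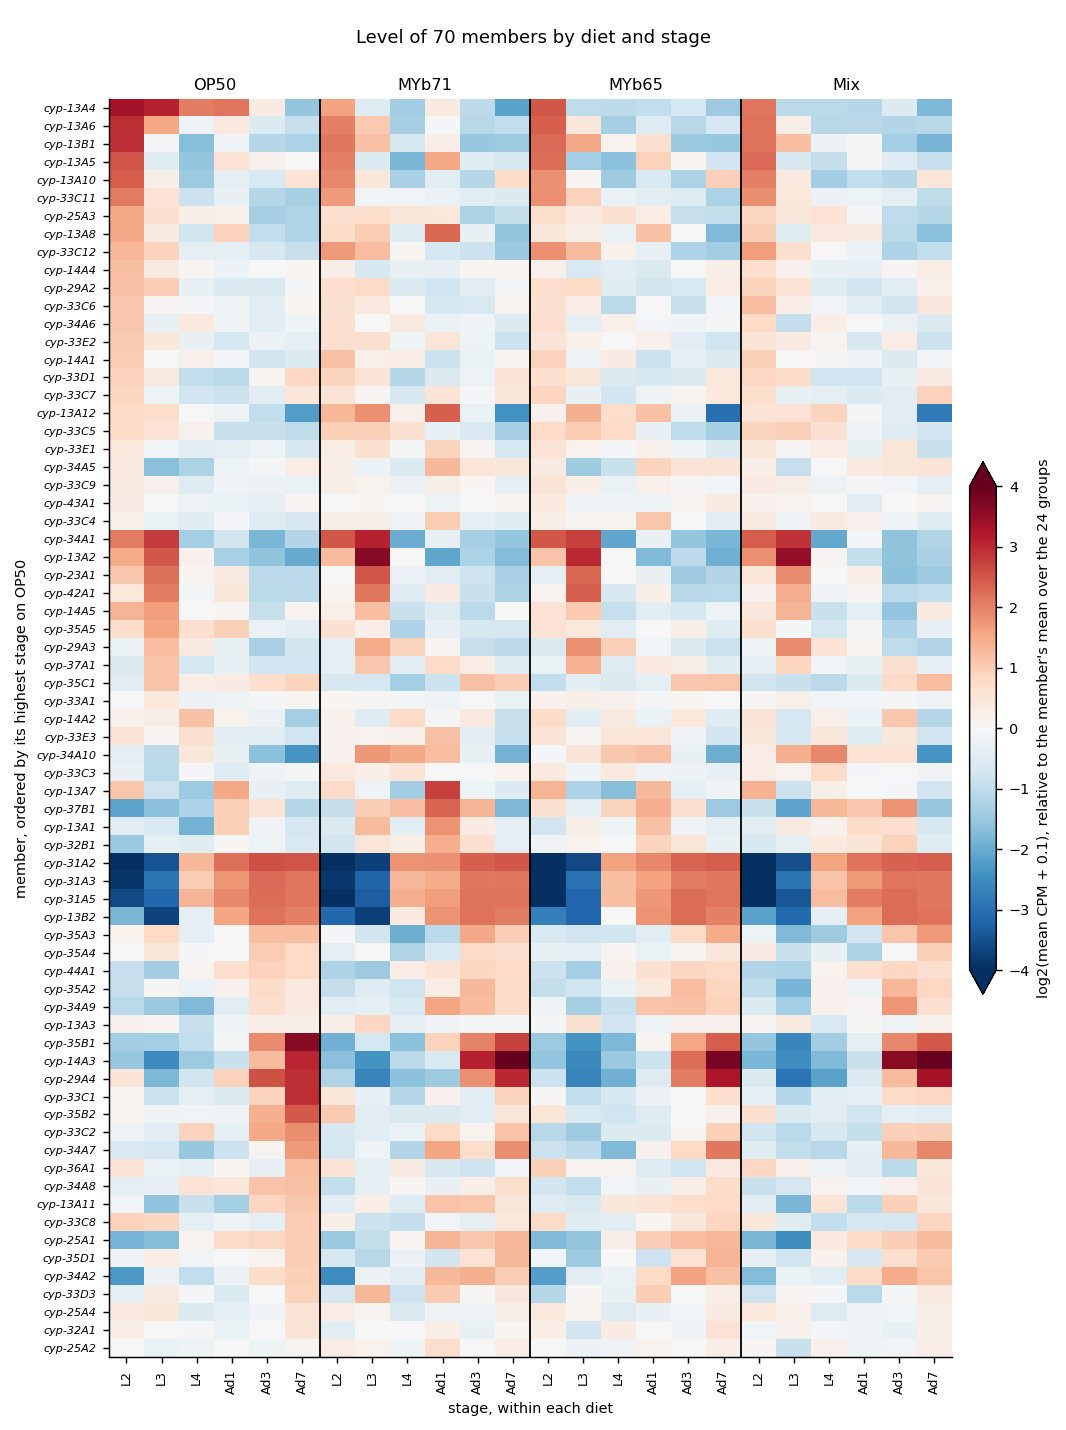
Level of the 70 tested members in the 24 combinations of diet and stage (columns, stages within diets), as log2(mean CPM + 0.1) relative to the mean of each member over these groups, with members (rows) ordered by their highest stage on OP50. *cyp-31A2*, *cyp-31A3* and *cyp-31A5* are low at L2 and L3 on all 4 diets. The same highest stage on all diets is seen for 32 of the 70 members, a count given without that of all genes.

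As a description, 32 of 70 members had their highest mean at the same stage on all 4 diets. Shares over all genes are not given here for this count or for those of the highest stage. L2 was the highest stage for 24 members on OP50, 19 on MYb71, 24 on MYb65 and 24 on Mix. Ad1 was the highest stage for 4 members on OP50, 16 on MYb71, 8 on MYb65 and 1 on Mix. The *cyp-31A* sum at Ad3 was 322.5 ± 35 CPM on OP50, 294 ± 19.3 on MYb71, 290.5 ± 22.9 on MYb65 and 296 ± 15.3 on Mix, and none of the 3 genes was called against OP50 on any diet (log2 changes between -0.20 and -0.07).

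Against this developmental background the question of the study was what the *Ochrobactrum* isolates change relative to OP50. In the model of stage plus diet over all 6 stages, 14 members were called on MYb71, 8 on MYb65 and 10 on Mix, and their union was 17 of the 70 tested. On MYb71, 6 rose and 8 fell, beside 1.61% and 3.04% of all 18364 genes tested. On MYb65, 2 rose and 6 fell (2.28% and 2.78% of all genes), and on Mix 1 rose and 9 fell (1.07% and 1.75%). The median log2 change over the 70 members was 0.01, -0.01 and -0.03 on MYb71, MYb65 and Mix, and over all genes -0.03, 0.00 and -0.02. *cyp-13A4*, *cyp-29A4*, *cyp-34A8*, *cyp-35B2* (lower) and *cyp-34A10* (higher) were called on all 3 diets. The 3 comparisons share the OP50 libraries, so calls and directions shared between diets are not independent. Matching counts over all genes for the union, the shared calls and the shared directions are not given here. Among the 17, 7 had a positive and 10 a negative change on each of the 3 diets. Leaving out all libraries numbered 1 lowered the counts from 14, 8 and 10 to 2, 3 and 3, and leaving out those numbered 2 gave 2, 3 and 5. Without those numbered 3 the counts were 20, 13 and 8. These fits hold fewer libraries, and their counts over all genes are not given here. From L2 to Ad3 the OP50 libraries numbered 1 held 45200110 to 74552875 counted reads, and the other libraries of the main set at most 30304949. The part of library number and depth in these losses was not tested.

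**Figure D2:**
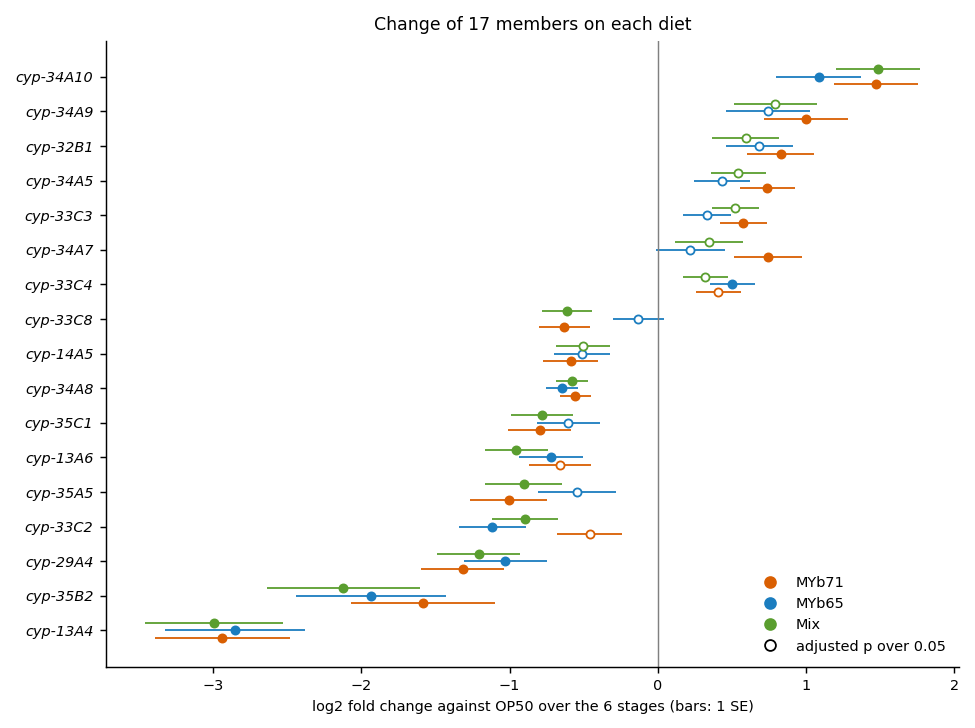
Log2 fold change against OP50 over the 6 stages (x axis, bars show 1 SE) of the 17 members called on 1 or more of MYb71, MYb65 and Mix (rows), with filled points for an adjusted p under 0.05. *cyp-13A4* stands at -2.94, -2.85 and -2.99, *cyp-34A10* at 1.47, 1.09 and 1.49, and each row lies on one side of 0 on all 3 diets.

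*cyp-13A4* (II: 9795756 to 9797740, minus strand, the fourth gene of the *cyp-13A* array) showed the largest change of the 17. At L3 the OP50 libraries held 3.71, 4.79 and 2.40 CPM, against 0, 0.422 and 0.197 on MYb71, 0.154, 0.204 and 0 on MYb65, and 0.0369, 0.216 and 0.0690 on Mix. At L2 the OP50 values were 5.27, 5.92 and 1.93 CPM and the others lay between 0.768 and 2.78 CPM. The groups did not overlap at L3 and L4 on any of the 3 diets, and at L2 on MYb71. At Ad1 and Ad3 the OP50 libraries split, with 2.72 and 2.68 CPM in those numbered 1 and 2 and 0.105 CPM in number 3 at Ad1, and 0.554, 0.770 and 0.0458 CPM at Ad3. By Ad7 the gene was at 0.0783, 0 and 0.0663 CPM on OP50 and at 0 in all MYb71 libraries, too few counts for a test at that stage. Across stages it was 7.67-fold lower on MYb71 (log2 change -2.94 ± 0.46, adjusted p = 3.0e-06), 7.21-fold lower on MYb65 (-2.85 ± 0.47, 1.3e-05) and 7.96-fold lower on Mix (-2.99 ± 0.47, 3.9e-06), from edgeR. These values rest on 1219 counts on OP50 and 119, 159 and 151 on the other diets. The call held in all alternatives run on each diet.

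*cyp-34A8* (V: 3964797 to 3967823, minus strand) fell by less and more evenly. At Ad3 it had 32.8, 26.8 and 24.3 CPM on OP50, against 12, 14.2 and 18.4 on MYb71, 11.1, 18.9 and 15.7 on MYb65, and 13.5, 12.4 and 18.4 CPM on Mix. All OP50 libraries were above those of each other diet at L2, L4 and Ad3, and at Ad7 above those of MYb65 and Mix. The log2 changes were -0.56 ± 0.11 on MYb71 (edgeR adjusted p = 0.00022), -0.65 ± 0.11 on MYb65 (1.8e-05) and -0.58 ± 0.11 on Mix (0.00011). The mean was below OP50 at all 6 stages on each diet. The call on MYb71 was lost without the libraries numbered 2 (adjusted p = 0.0992).

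*cyp-29A4* (V: 9654755 to 9658120, plus strand) had its highest level on OP50 at Ad7, and its mean lay below OP50 at the 5 earlier stages on each diet. At Ad3 the OP50 libraries had 7.59, 5.94 and 4.99 CPM, against 3.85, 4.10 and 3.23 on MYb71, 6.50, 4.11 and 2.96 on MYb65, and 2.51, 2.85 and 2.14 on Mix. OP50 was above all MYb71 and Mix libraries there, but overlapped MYb65. At Ad1 the OP50 libraries numbered 1 and 2 had 3.05 and 2.68 CPM and number 3 had 0.158 CPM, below the 0.278 to 0.909 CPM of the other diets. The summed *cyp-31A* level, which rises with stage, was 318, 283 and 141 CPM in these OP50 libraries. The part of developmental pace in this split was not tested. At Ad7 the order turned, with 8.26, 8.45 and 8.22 CPM on OP50 and 10.2, 10.5 and 11.7 CPM on Mix. The change over all stages was -1.32 ± 0.28 on MYb71 (edgeR adjusted p = 0.0011), -1.03 ± 0.28 on MYb65 (0.018) and -1.21 ± 0.28 on Mix (0.0038). Without the libraries numbered 1 the adjusted p became 0.192, 0.752 and 0.30, and without those numbered 2 it became 0.115, 0.117 and 0.0973.

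*cyp-35B2* (V: 3942160 to 3944523, plus strand) was called on all 3 diets at the edge of detection. At Ad7 it had 0.626, 1.72 and 0.199 CPM on OP50, against 0, 0.0462 and 0.382 on MYb71, 0.113, 0.0932 and 0.0694 on MYb65, and 0.0397, 0.0447 and 0 CPM on Mix. OP50 lay above all libraries of the other diets at Ad3, and at Ad7 above those of MYb65 and Mix. The log2 changes were -1.59 ± 0.49, -1.94 ± 0.51 and -2.12 ± 0.52 (edgeR adjusted p = 0.041, 0.013 and 0.0069), from 117 counts on OP50 and 26, 19 and 19 on MYb71, MYb65 and Mix. Without the libraries numbered 2 the adjusted p was 0.748, 0.459 and 0.0690, without those numbered 1 it was 0.30 on MYb71 and 0.104 on Mix, and without those numbered 3 it was 0.0771 on Mix. The call on MYb71 was lost in 8 of 13 alternatives, with DESeq2 (0.0804), no low count filter (0.0592), 80 libraries (0.087), no Mix libraries (0.117) and the MYb65 pair placed by title (0.0623) among them, and DESeq2 gave no adjusted p on MYb65.

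*cyp-34A10* (V: 3970702 to 3972991, minus strand, the last gene of its array) was the one member that rose on all 3 diets. At L3 it had 0.771, 0.244 and 0.951 CPM on OP50, against 8.54, 2.72 and 3.94 on MYb71, 1.78, 0.938 and 3.69 on MYb65, and 0.959, 5.37 and 5.87 CPM on Mix. At Ad3 the OP50 libraries had 0.452, 0.513 and 0.229 CPM and the others 0.655 to 2.95 CPM, with no overlap on any diet. At Ad7 the gene was at 0.0392 to 0.552 CPM on all diets and the groups overlapped. Across stages it was 2.77-fold higher on MYb71 (log2 change 1.47 ± 0.28, edgeR adjusted p = 0.00022), 2.12-fold on MYb65 (1.09 ± 0.29, 0.015) and 2.80-fold on Mix (1.49 ± 0.28, 0.00020). The adjusted p was 0.113 on MYb71 and 0.339 on MYb65 without the libraries numbered 1, and 0.182 on MYb65 without those numbered 2, while the call on Mix held in all alternatives run.

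**Figure D3:**
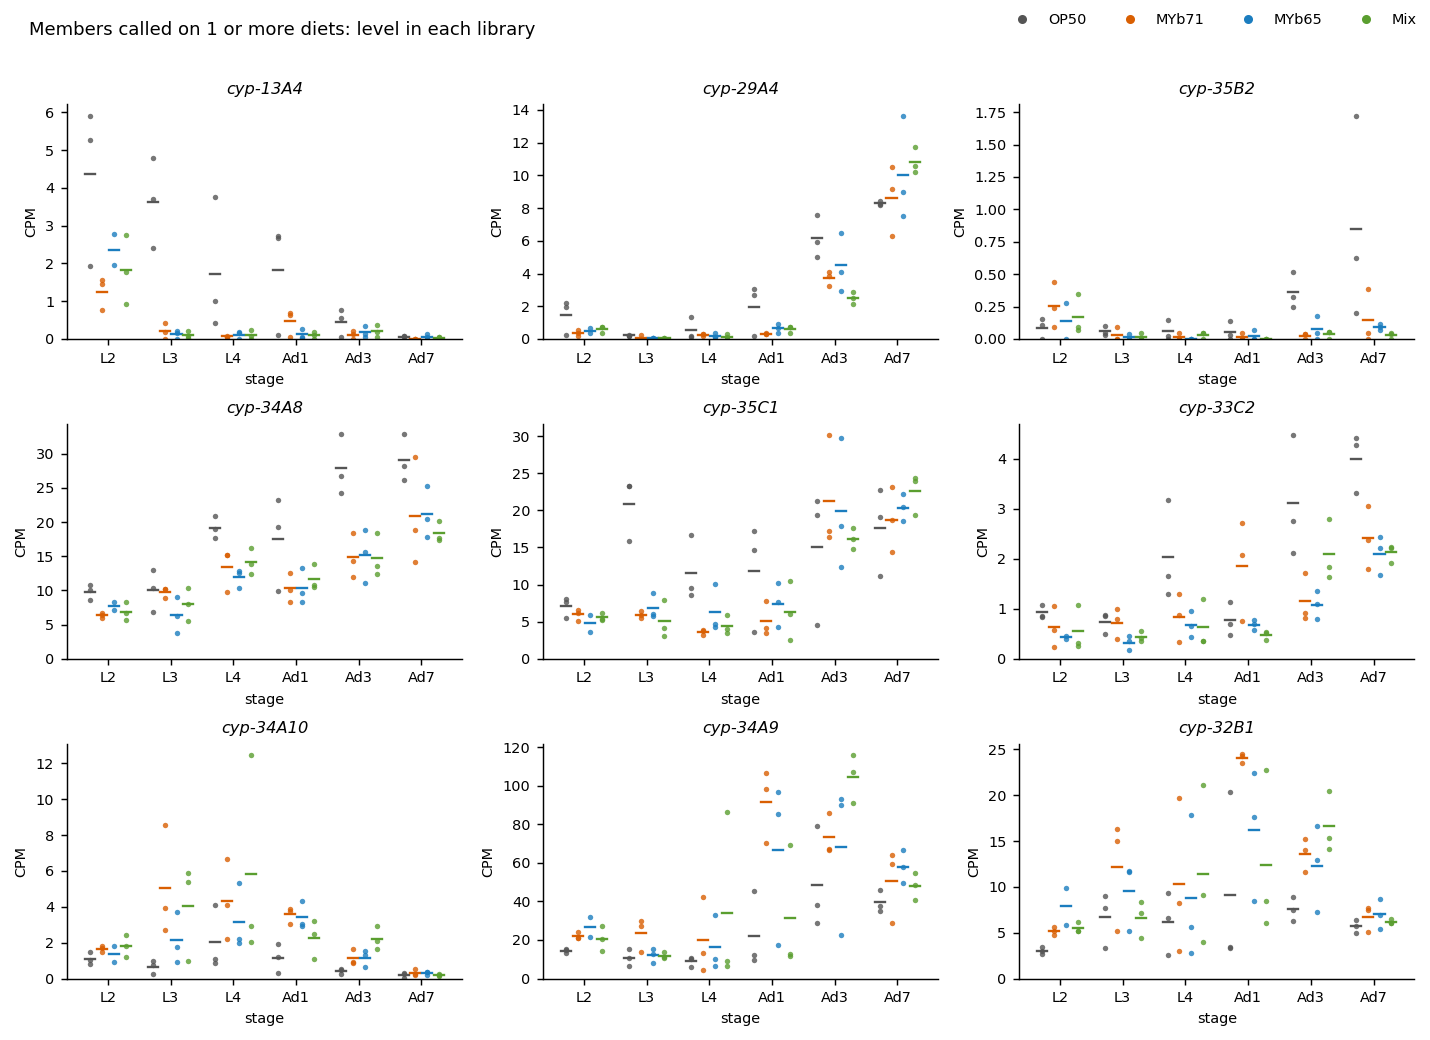
CPM (y axis, linear from 0) of 9 called members in each of the 71 libraries by stage (x axis) and diet (color), with horizontal bars at group means. *cyp-13A4* is at 2.40 to 4.79 CPM on OP50 at L3 and at or below 0.422 CPM on the other diets. For *cyp-29A4* the OP50 libraries lie above those of MYb71 and Mix at Ad3 but overlap MYb65. At Ad7 its Mix libraries lie above those of OP50.

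Beyond these, the called members that rose came from the *cyp-34A*, *cyp-33C* and *cyp-32B* subfamilies. *cyp-34A9*, known as a gene downstream of DAF-16, had 98.4, 70.3 and 107 CPM on MYb71 at Ad1 against 12, 9.53 and 45.2 on OP50, and rose over all stages by 1.00 ± 0.28 on MYb71 (edgeR adjusted p = 0.023). Its log2 changes on MYb65 and Mix were 0.74 ± 0.28 and 0.79 ± 0.28 and were not called. *cyp-34A5* and *cyp-34A7* rose on MYb71 by 0.74 ± 0.19 and 0.74 ± 0.23 on the log2 scale (adjusted p = 0.0082 and 0.045). For *cyp-34A7* the MYb71 libraries at Ad1 had 8.03, 2.18 and 6.87 CPM, and those of OP50 1.17, 0.972 and 0.739 CPM. *cyp-32B1* rose on MYb71 by 0.83 ± 0.23 (0.017), with 24.5, 24.3 and 23.5 CPM at Ad1 against 3.49, 3.38 and 20.4 on OP50. *cyp-33C3* rose on MYb71 by 0.58 ± 0.16 (0.019), and *cyp-33C4* rose on MYb65 by 0.50 ± 0.15 (0.038). The OP50 library numbered 3 at Ad1 lay with the other diets for *cyp-32B1* and apart from the other OP50 libraries for *cyp-34A9*. None of these 6 calls held without the libraries numbered 1 (adjusted p between 0.296 and 0.697) or without those numbered 2 (between 0.101 and 0.398). That of *cyp-34A7* was also lost with all 82 libraries (0.0711), no low count filter (0.067), the MYb65 pair placed by title (0.0695), no Mix libraries (0.0503) and without those numbered 3 (0.0922), 7 of 13 alternatives in all, and that of *cyp-33C4* in 6 of 13.

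The members that fell on 1 or 2 diets came from the *cyp-13A*, *cyp-14A*, *cyp-33C* and *cyp-35* groups. *cyp-33C2* fell on MYb65 and Mix by 1.12 ± 0.23 and 0.90 ± 0.22 on the log2 scale (edgeR adjusted p = 0.00052 and 0.0081), and its OP50 libraries stood above all MYb65 libraries at L2, L3, L4, Ad3 and Ad7. At Ad7 it had 4.27, 4.41 and 3.31 CPM on OP50 and 2.21, 2.42 and 1.67 CPM on MYb65. *cyp-13A6* fell on MYb65 and Mix by 0.72 ± 0.21 and 0.95 ± 0.21 (0.033 and 0.0021) and had an adjusted p of 0.051 on MYb71. *cyp-35C1* and *cyp-33C8* fell on MYb71 and Mix, *cyp-35C1* by 0.80 ± 0.21 and 0.78 ± 0.21 (0.013 and 0.020) and *cyp-33C8* by 0.63 ± 0.17 and 0.61 ± 0.17 (0.017 and 0.026). *cyp-35A5*, of a subfamily whose knockdown is known to lower fat stores, fell on MYb71 and Mix by 1.01 ± 0.26 and 0.91 ± 0.26 (0.012 and 0.037). *cyp-14A5* fell on MYb71 by 0.59 ± 0.19 (0.048), with 48.0, 72.6 and 20.2 CPM on OP50 at L2 against 26.0, 21.0 and 16.4 on MYb71, which overlap. Without the libraries numbered 1 the calls of all of these were lost (adjusted p between 0.0617 for *cyp-35A5* and 0.609 for *cyp-13A6*). Without those numbered 2 *cyp-33C2* on both diets and *cyp-13A6* on Mix stayed called, and the others had adjusted p between 0.053 and 0.426. Over all alternatives the call of *cyp-14A5* on MYb71 was lost in 8 of 13, that of *cyp-13A6* on MYb65 in 7 of 13 and that of *cyp-35A5* on Mix in 6 of 12.

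Of the 11 arrays, only the longest are described here, and in that on chromosome V neighbors were called in different directions. On MYb71, in the array on chromosome V, *cyp-35A5* and *cyp-35B2* fell at one end, *cyp-34A5*, *cyp-34A7*, *cyp-34A9* and *cyp-34A10* rose, and *cyp-34A8*, between *cyp-34A7* and *cyp-34A9*, fell. *cyp-34A6* lay at -0.04 ± 0.17, 0.00 ± 0.15 and -0.18 ± 0.17 on the log2 scale on MYb71, MYb65 and Mix. On MYb71 the difference in direction lay between genes next to each other, *cyp-34A8* at -0.56 ± 0.11 and *cyp-34A9* at 1.00 ± 0.28. *cyp-34A5*, *cyp-34A7* and *cyp-34A9* were not called on MYb65 or Mix. Their calls on MYb71 were lost without the libraries numbered 1 or those numbered 2, as were those of *cyp-35A5* and *cyp-35B2*. That of *cyp-34A8* was lost without those numbered 2, and that of *cyp-34A10* without those numbered 1. In the array on chromosome II *cyp-13A4* and *cyp-13A6* fell, and the other 6 members were not called on any diet. *cyp-13A5*, which lies between them and was more abundant (11.3 CPM per kb on OP50, against 1.22 for *cyp-13A4*), had log2 changes of -0.17 ± 0.28, -0.30 ± 0.28 and -0.31 ± 0.28.

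**Figure D4:**
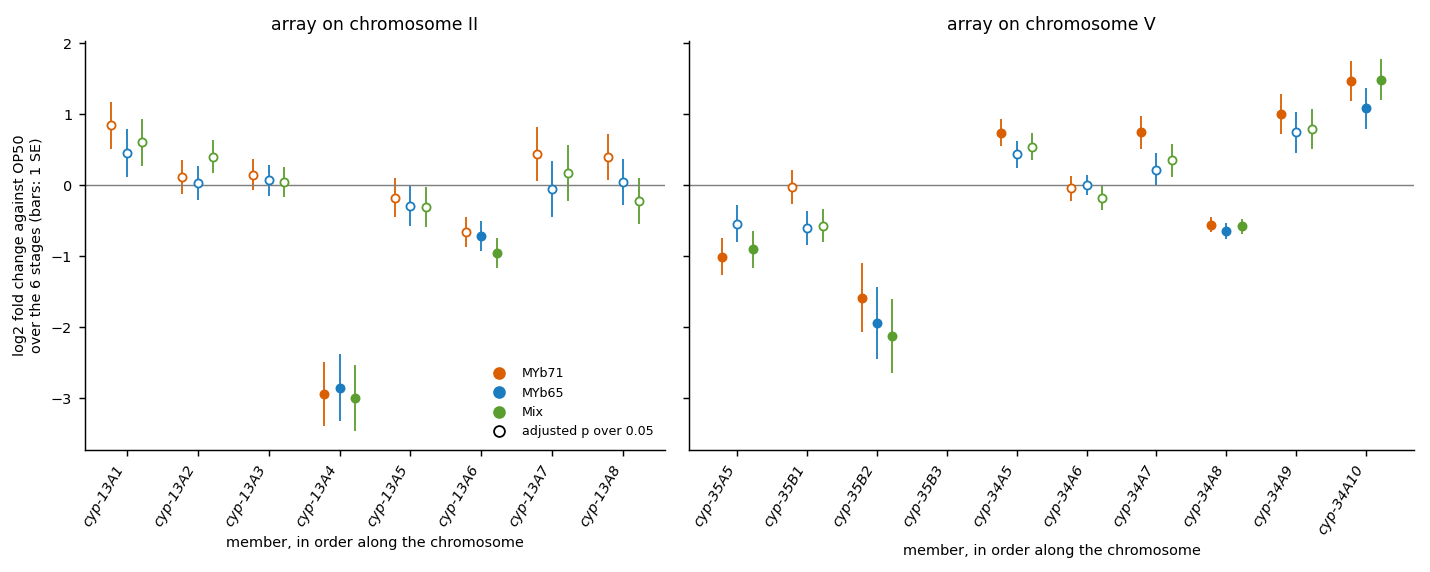
Log2 fold change against OP50 over the 6 stages (y axis, bars show 1 SE) of the members of the *cyp-13A* array on chromosome II (left) and of the *cyp-35* and *cyp-34A* array on chromosome V (right), in their order along the chromosome (x axis), with filled points for an adjusted p under 0.05. *cyp-34A8* lies below 0 between neighbors above it, and *cyp-35B3*, which had too few counts, has no point.

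At single stages fewer members were called, in models of 3 libraries per diet. The count was 5 members over 18 comparisons (*cyp-25A3*, *cyp-32B1*, *cyp-13A4*, *cyp-35C1* and *cyp-36A1*), and DESeq2, run on the same libraries, called 19, these 5 included. At L2, 1 of 65 members was called on MYb71, 2 on MYb65 and 1 on Mix, beside 0.848%, 0.66% and 0.64% of all genes. At L3, 0 of 64 were called on MYb71, 1 on MYb65 and 2 on Mix (0.521%, 0.751% and 0.584% of all genes). The 0 on MYb71 stands beside 18 members with an unadjusted p under 0.05 and 6 called by DESeq2. Of all 14384 genes tested at L3, 1540 had such a p on MYb71, and DESeq2 called 411. At Ad7, 1 of 61 was called on MYb71, 1 on MYb65 and 0 on Mix (0.404%, 0.396% and 0.476%). On Mix, 11 had an unadjusted p under 0.05 and 2 were called by DESeq2, which called 190 of all 13872 genes there. The count of 5 was 3 without Mix L3 number 3 or OP50 L3 number 2, 8 without OP50 L2 number 4 or OP50 Ad3 number 3, and 9 without MYb65 Ad3 number 1.

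L4, Ad1 and Ad3 gave 0 calls by edgeR on every diet. At L4, 0.0821%, 0.0505% and 0.0316% of all genes were called on MYb71, MYb65 and Mix. There, the unadjusted p was under 0.05 for 5, 4 and 7 of 59 members, beside 524, 377 and 359 of all 15829 genes. DESeq2 called 0 members, beside 54, 50 and 54 genes, and gave no adjusted p for 5 members on MYb65. At Ad1, 0.0% of all genes were called on each diet. The unadjusted p was under 0.05 for 19, 8 and 2 of 62 members, beside 549, 504 and 376 of all 15349 genes. DESeq2 called 2, 0 and 0 members, beside 93, 52 and 38 genes. It gave no adjusted p for 15 members on MYb71 and 16 on MYb65. Of the 19 on MYb71, 16 were higher and 3 lower than on OP50. The split of the 549 genes by direction is not given here. The OP50 libraries at Ad1 were uneven, with summed *cyp-31A* levels of 318, 283 and 141 CPM, and number 2 was closest to Ad3. At Ad3, 0.134%, 0.24% and 0.0706% of all genes were called. The unadjusted p was under 0.05 for 10, 14 and 13 of 62 members, and 2, 2 and 6 were called by DESeq2. Of all 14163 genes there, 1002, 1146 and 848 had such a p, and DESeq2 called 192, 249 and 213.

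*cyp-25A3* (III: 3837538 to 3839735, minus strand) differed at L2. It had 54.9, 49.7 and 44.7 CPM on OP50, against 27.7, 26.5 and 25.8 on MYb71, 28.0 and 27.4 on MYb65, and 32.3, 32.6 and 27.6 CPM on Mix. The OP50 libraries lay above all 8 others, with log2 changes of -0.85 ± 0.10, -0.86 ± 0.12 and -0.66 ± 0.10 (edgeR adjusted p = 0.0031, 0.0077 and 0.016). At L3, L4, Ad3 and Ad7 the groups overlapped on each diet, and over all stages its log2 changes were -0.03 ± 0.12, 0.01 ± 0.12 and -0.09 ± 0.12. Ad1 is not among these stages of overlap, and there edgeR did not call the gene on any diet. With the OP50 library numbered 3 and the other spare libraries included the adjusted p was 0.797, 0.740 and 0.808, and with 80 libraries, without the OP50 libraries numbered 3 at L2 and L3, it was 0.193, 0.224 and 0.343, so the calls on all 3 diets were lost in both. The call on MYb65 was lost without either of its libraries (0.142 and 0.216). That on Mix was lost without any one of its own libraries (0.0656 to 0.116) or without OP50 number 1 or 2 (0.0772 and 0.0768). It was also lost without MYb65 number 2 (0.0525), with no low count filter (0.0953) and with the MYb65 pair placed by title (0.219).

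*cyp-36A1* (I: 8341682 to 8346023, minus strand), which shares 147 exon bases with *figo-1*, differed at Ad7. The gene is known to be repressed by the hypoxia factor HIF-1 and to act in stress resistance and behavior. At Ad7 it had 12.7, 15.8 and 10.5 CPM on OP50, against 5.01, 5.59 and 4.51 on MYb71, 7.36, 6.06 and 8.05 on MYb65, and 8.29, 8.27 and 6.54 CPM on Mix, with no overlap. The log2 change was -1.36 ± 0.17 on MYb71 (edgeR adjusted p = 0.0045), -0.87 ± 0.16 on MYb65 (0.046) and -0.76 ± 0.16 on Mix (0.072, not called). The call on MYb71 held in all alternatives. That on MYb65 was lost when any 1 of the 12 libraries at Ad7 other than OP50 number 3 was left out (adjusted p between 0.0617 and 0.188). It was also lost without the Mix libraries (0.0951). At L3 the order was reversed for MYb65 and Mix, all of whose libraries (5.27 to 7.49 CPM) lay above those of OP50 (3.30 to 5.23 CPM), with log2 changes of 0.48 ± 0.21 and 0.54 ± 0.21 that were not called. *hif-1* itself had log2 changes of 0.13 ± 0.12, 0.17 ± 0.12 and 0.12 ± 0.12 across stages, not called.

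**Figure D5:**
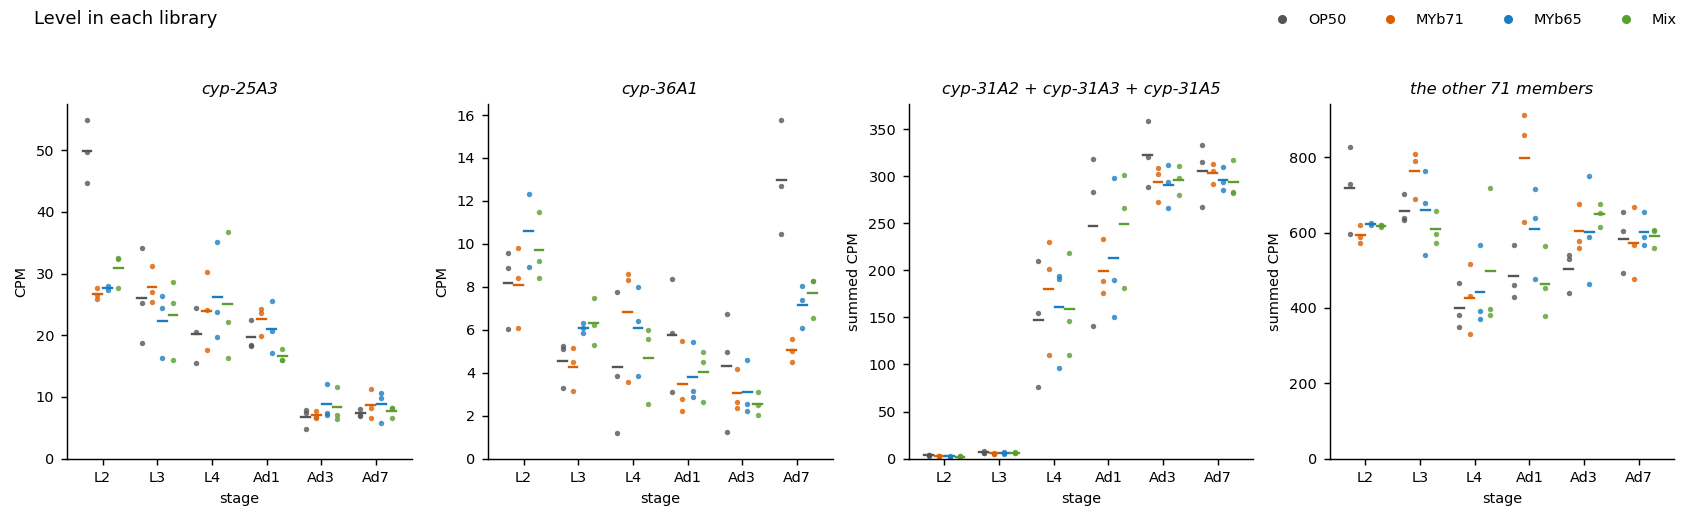
CPM by stage (x axis) and diet (color) in each library for *cyp-25A3* and *cyp-36A1*, the summed CPM of *cyp-31A2*, *cyp-31A3* and *cyp-31A5*, and that of the other 71 members, with horizontal bars at group means and y axes from 0. The OP50 libraries stand above all others for *cyp-25A3* at L2 (44.7 to 54.9 CPM) and for *cyp-36A1* at Ad7 (10.5 to 15.8 CPM), while the *cyp-31A* sum follows stage on every diet.

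*cyp-32B1* at L2 and *cyp-35C1* and *cyp-13A4* at L3 completed the single-stage calls. *cyp-32B1* had 5.88 and 9.90 CPM on MYb65 at L2 against 2.66, 3.04 and 3.41 on OP50 (log2 change 1.37 ± 0.25, edgeR adjusted p = 0.038), and MYb71 (4.79 to 5.66 CPM) and Mix (5.18 to 6.16 CPM) also lay above OP50, not called. *cyp-35C1* at L3 had 15.9, 23.3 and 23.4 CPM on OP50, against 5.56, 6.38 and 5.85 on MYb71, 8.84, 5.99 and 5.72 on MYb65, and 7.93, 3.07 and 4.21 on Mix. Its log2 change was -2.02 ± 0.32 on Mix (0.022), -1.69 ± 0.32 on MYb71 (0.055) and -1.56 ± 0.32 on MYb65 (0.064), and at Ad3 and Ad7 its groups overlapped. *cyp-13A4* at L3 was called on MYb65 (-4.61 ± 0.83, 0.037) and Mix (-4.95 ± 0.86, 0.034) and not on MYb71 (-3.98 ± 0.79, 0.069), where the OP50 libraries also lay above all others. With the conflicting MYb65 pair placed by its title all of these were lost, at adjusted p of 0.0676 for *cyp-32B1*, 0.0875 for *cyp-35C1*, and 0.0768 and 0.0505 for *cyp-13A4*. Leaving out single libraries also ended them: *cyp-13A4* on MYb65 without any one of 7 libraries (0.0517 to 0.221) and on Mix without any one of 7 (0.0677 to 0.188), *cyp-35C1* without Mix number 2 or 3 or OP50 number 2 or 4 (0.0508 to 0.139), and *cyp-32B1* without any one of 8 (0.056 to 0.473).

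No member was called between the diets other than OP50. Between MYb71 and MYb65 edgeR and DESeq2 both called 0 of 70 members over all stages, and edgeR called 0.0653% of all genes. An unadjusted p under 0.05 was found for 5 members, beside 779 of all 18364 genes. Of these 5, *cyp-33C2* lay at 0.66 on the log2 scale (95% interval 0.21 to 1.11) and *cyp-33C8* at -0.50 (-0.84 to -0.16). *cyp-35B1* and *cyp-34A7* lay at 0.58 (0.11 to 1.05) and 0.53 (0.07 to 0.98), and *cyp-33A1* at -0.16 (-0.31 to -0.02). For *cyp-13A4* the difference between these isolates was -0.09 (-1.11 to 0.93), and for *cyp-34A8* it was 0.09 (-0.12 to 0.30). Between Mix and the mean of the single isolates both tools again called 0 members, and edgeR called 0.0109% of all genes. An unadjusted p under 0.05 was found for 1 member, beside 728 of all genes. Neither result shows that the isolates act alike, since the interval for *cyp-34A10* between MYb71 and MYb65 ran from -0.16 to 0.93 around 0.39.

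Whether a diet changed members differently in larvae and in adults was tested as a contrast of its own, the mean log2 change over Ad1, Ad3 and Ad7 minus that over L2, L3 and L4. edgeR called 0 of 70 members on any diet, with 7, 6 and 8 at an unadjusted p under 0.05 on MYb71, MYb65 and Mix. It called 0.207%, 0.207% and 0.152% of all genes. DESeq2 also called 0 members, beside 90, 87 and 37 genes, but gave no adjusted p for 7, 7 and 1 members. The 1 exception when libraries of one number were left out appeared without those numbered 3. With all 82 libraries, which include the OP50 libraries labelled L2 and L3 that correlate with adults, 8 members were called, *cyp-31A2*, *cyp-31A3* and *cyp-31A5* among them, and with 80 libraries, without that pair, 0 were.

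Partners of the family were compared in the same fits. Of 5 electron donors, *cytb-5.2* fell on MYb71 and MYb65 (log2 changes -0.26 ± 0.07 and -0.24 ± 0.07, edgeR adjusted p = 0.017 and 0.034) and *cytb-5.1* on MYb65 (-0.34 ± 0.10, 0.029), both cytochromes b5, and the reductase *emb-8* lay at -0.02, 0.04 and -0.07. Of 6 dafachronic acid genes, *daf-9* included, and of the epoxide hydrolases *ceeh-1* and *ceeh-2* edgeR called 0 on any diet. Among 16 regulators known to act on *cyp* genes or on xenobiotic and fat genes, *nhr-8*, the nuclear receptor of xenobiotic and sterol responses, rose on all 3 diets (0.50 ± 0.13, 0.56 ± 0.13 and 0.53 ± 0.13, adjusted p = 0.011, 0.0041 and 0.0084). *egl-9*, the prolyl hydroxylase that marks HIF-1 for degradation, rose on MYb71 and MYb65 (0.31 ± 0.09 and 0.29 ± 0.09), and *pqm-1*, a zinc finger transcription factor of stress and metabolic genes, on MYb65 (0.54 ± 0.15). The other 13 were not called. *cyp-13A7*, named above for its link to *nhr-8*, had log2 changes of 0.44 ± 0.38, -0.06 ± 0.39 and 0.17 ± 0.39, not called. In the conjugating families, 1 of 65 *ugt* genes rose and 11 fell on MYb71, 2 rose and 8 fell on MYb65, and 0 rose and 9 fell on Mix, where 3.04%, 2.78% and 1.75% of all genes fell and 1.61%, 2.28% and 1.07% rose. Of 44 *gst* genes 2 rose and 0 fell on MYb71, 2 rose and 2 fell on MYb65, and 2 rose and 1 fell on Mix.

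Tissue markers were compared in the same fits. Of 6 intestine markers measured, *ges-1* rose on MYb71 and MYb65 and *asp-1* on MYb65, and the median log2 change of the list was 0.27, 0.34 and 0.28 on MYb71, MYb65 and Mix, beside -0.03, 0.00 and -0.02 over all genes. Summed over the list, intestine markers at Ad3 ranged from 419 to 1630 CPM on OP50 and from 981 to 2878 CPM over the other diets, and at L3 from 4408 to 7649 CPM on OP50 and from 3443 to 9766 CPM over the others. All 6 were detected on every diet. The part of this in the called members, higher or lower, was not tested. Of the germline, oocyte and eggshell, hypodermis, pharynx, muscle and neuron lists edgeR called 0 markers on any diet, and of 4 sperm markers *msp-10* was called on MYb65.

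Members with a known role that were not called for diet are given by their values. *cyp-35A2* and *cyp-35A3*, inducible by many foreign compounds, had log2 changes of -0.04 ± 0.21, 0.01 ± 0.22 and -0.12 ± 0.21 and of -0.77 ± 0.28, -0.62 ± 0.28 and -0.76 ± 0.28 on MYb71, MYb65 and Mix. *cyp-35A3* was below all OP50 libraries at L3 on each of the 3 diets, with 0.653, 1.12 and 3.30 CPM on OP50 and 0.138 to 0.652 CPM elsewhere. *cyp-35D1*, known to oxidize thiabendazole, was likewise lower at L3 in all libraries (0.131 to 0.563 CPM) than on OP50 (0.782 to 1.04 CPM) and lay at -0.44 ± 0.22, -0.37 ± 0.22 and -0.27 ± 0.22 across stages. *cyp-33E2*, an eicosanoid-forming enzyme of the pharynx, lay at 0.11 ± 0.14, -0.03 ± 0.14 and -0.01 ± 0.14. *cyp-13A12*, which acts in the response to reoxygenation downstream of EGL-9 and HIF-1, reached 106, 19.8 and 123 CPM on MYb71 at Ad1 against 9.43, 9.81 and 21.2 CPM on OP50, and its change over all stages on MYb71 was 0.90 ± 0.30 (edgeR adjusted p = 0.068). *cyp-37A1* and *cyp-44A1* lay at 0.47 ± 0.17 and -0.07 ± 0.09 on MYb71.

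The remaining subfamilies gave no call for diet across stages. These were *cyp-13B*, *cyp-23A*, *cyp-25A*, *cyp-31A*, *cyp-32A*, *cyp-33A*, *cyp-33D*, *cyp-33E*, *cyp-35D*, *cyp-36A*, *cyp-37A*, *cyp-37B*, *cyp-42A*, *cyp-43A* and *cyp-44A*, while *cyp-33B1* was not tested. Among them the change farthest from 0 was that of *cyp-37B1*, at 1.34 ± 0.51, 1.00 ± 0.51 and 0.78 ± 0.50, with libraries of one group as far apart as 0.667 and 43.1 CPM on MYb71 at L4. In the *cyp-13A* subfamily log2 changes on MYb71 ran from -2.94 to 0.90 with a median of 0.15, and in *cyp-34A* from -0.56 to 1.47 with a median of 0.59. In *cyp-35A* they ran from -1.01 to -0.04, with a median of -0.67, and in *cyp-33C*, the other subfamily with 11 members, from -0.75 to 0.58 with a median of 0.11.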

How the data were processed

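RNA was measured by polyA-selected, unstranded sequencing of whole worms. Per the labels, the authors trimmed with Trimmomatic, used STAR 2.5.3a (version from the submitters' processing notes) for mapping to WormBase WS235, and deposited raw HTSeq counts per gene, which were used unchanged. The treatment of multiply mapped reads is not stated there. The study describes 3 replicates per group, so the fourth library of 11 groups (that numbered 3) was left out. edgeR 4.0.16 (limma 3.58.1, R 4.3.3) was used with TMM scaling, filterByExpr (minimum count 10, total 15, share 0.7), a robust quasi-likelihood fit and a Benjamini-Hochberg threshold of 0.05. The designs were stage plus diet, diets within each stage, and all 24 groups. The SE of an edgeR log2 change was its absolute value over the square root of the test's F statistic. The 95% intervals were normal intervals from that SE, so both are approximate and can differ from the p-value. DESeq2 1.42.0, RLE size factors, no filter, other library sets, a replicate block and left-out replicates were alternatives. Replicates were independent runs of the exposure, so p-values at single stages measure the spread between runs. The fits over several stages counted libraries of different stages as independent, although a run may have given several stages. Their p-values therefore do not measure the spread between runs alone, and no alternative modelled the run over stages. The code was tested on simulated data. Named genes were all called members, the 8 highest per kb on OP50, the 3 smallest p per step and direction, and members of known role. Members and lists were chosen with earlier results of these data known.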

Additional observations from a re-analysis of the deposited data

Results flagged for a closer look

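The summed CPM of all cyp members in MYb65 Ad7 number 1 was 939.4 and lay apart from the other libraries of its group by Dixon's criterion at 95%. It was the 1 such case in 11 groups of 4 libraries, and chance gives about 1 in 20. The OP50 libraries numbered 3 at L2 and L3, which were outside the main set, had summed *cyp-31A* levels of 331.0 and 292.5 CPM, against means of 3.54 and 6.64 CPM in the OP50 libraries of the main set at those stages.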

How the results depend on the processing

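The full set of 82 libraries includes the OP50 libraries labelled L2 and L3 that correlate with adults. With it the counts of called members across stages went from 14 to 26 on MYb71. They went from 8 to 16 on MYb65 and from 10 to 18 on Mix. Those at single stages went from 5 to 3, for the larval and adult difference from 0 to 8 and for the OP50 steps from 44 to 26. Leaving out the libraries of 1 number gave 2 to 20 members on MYb71, 3 to 13 on MYb65, 3 to 8 on Mix, 0 to 1 for the larval and adult difference and 26 to 43 for the steps. Leaving out single libraries gave 3 to 9 members at single stages, DESeq2 gave 19, and placing the MYb65 pair by title gave 2. The study ran treatments in parallel, but no source used here ties a replicate number to a run. Of 84 same-numbered pairs, 41 had r over 0.1 (-0.785 to 0.917), and 28 of 71 libraries correlated best with their own number, so the numbers were not taken to pair the libraries over all groups. Of 12 pairs of groups sharing 3 numbers, 5 had every r over 0.1 (OP50 with MYb71 at L2 and L3, OP50 with MYb65 at L4, and MYb71 with MYb65 at Ad3 and Ad7), and the one call among these, *cyp-25A3* at L2 on MYb71, stayed with the block. With the replicate block 19, 9 and 6 members were called on MYb71, MYb65 and Mix and 2 at single stages, and the block could not be fitted for the steps. It ended, across stages, the calls of *cyp-35B2* on MYb71 and Mix (adjusted p = 0.0551 and 0.0554), *cyp-33C4* on MYb65 (0.0633), and *cyp-33C8*, *cyp-35A5* and *cyp-35C1* on Mix (0.0878, 0.228 and 0.124). At single stages it ended those of *cyp-32B1* on MYb65 (0.0597) and *cyp-25A3* on Mix (0.0737) at L2, *cyp-13A4* on MYb65 and Mix (0.0883 and 0.111) and *cyp-35C1* on Mix (0.176) at L3, and *cyp-36A1* on MYb65 at Ad7 (0.077). Over single genes, 642 of 820 alternative values kept direction and side of the threshold, 155 lost it, 21 gained it and 2 turned sign, *cyp-33C8* on MYb65 (-0.212 to 0.021 over the left-out replicates) and *cyp-34A7* on MYb65 with all 82 libraries (-0.053). The cause of these changes was not tested. Genes with few counts, such as *cyp-35B2*, limit the precision.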
